A study of Mus musculus with 12 samples.

Results

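The receptors through which noradrenaline and dopamine act were examined in the dorsal hippocampus of mouse pups at postnatal day 7. The 9 genes were chosen by name, as the adrenergic and dopamine receptor symbols Adra1a, Adra1b, Adra1d, Adra2a, Adra2c, Adrb1, Drd1, Drd2 and Drd5, out of 52634 genes in the count table. All 9 were found and all 9 were among the 17631 genes that passed the filter on low counts. The SERTPyramid genotype (SERTPyramid∆ in the sample titles) lacks the serotonin transporter gene Slc6a4 conditionally in pyramidal neurons, and the SERTfl/fl controls carry the floxed gene. Each of the 12 RNA libraries came from tissue pooled from 4 pups, with 3 SERTPyramid and 3 SERTfl/fl libraries labelled female and as many labelled male. The sources used here name neither the Cre driver nor the litters behind each pool, and the p-values therefore reflect the spread from library to library.

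Noradrenaline reaches the hippocampus mainly from the locus coeruleus, and dopamine is released there from midbrain and locus coeruleus fibres. The receptors are G protein-coupled. Alpha1 receptors couple through Gq to phospholipase C, alpha2 receptors and the D2 receptor couple through Gi and Go and lower cyclic AMP, and beta1, D1 and D5 receptors couple through Gs or Golf and raise it. In the hippocampus beta receptors and D1-like receptors are known for their part in synaptic plasticity and memory.

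Library totals were 18747249 to 25522347 counts, and 3 counts, taken as the limit that a count of 0 allows, correspond to 0.118 to 0.160 CPM (counts scaled to the library total). Such limits cover counting error only. In 10 of 12 libraries the sex-chromosome transcripts did not match the label: 6 libraries held 16794 to 22750 counts of Xist and at most 6 Y-linked counts, and 6 held 13 to 527 counts of Xist and 2159 to 3151 Y-linked counts. The 2 libraries that matched their label were control replicate 1 of each sex, so "female" and "male" below name labels. All SERTPyramid libraries labelled female were low in Xist and all those labelled male were high, while each control group held both states. Within a label, and in the interaction, genotype therefore cannot be fully told apart from Xist state. The fits below without control replicate 1 of both sexes leave a single Xist state within each label. Slc6a4 had 12, 3 and 1 counts in SERTPyramid libraries labelled female, against 5, 16 and 9 in controls, and 8, 3 and 7 counts in SERTPyramid libraries labelled male, against 0, 17 and 12 in controls. At this depth it gives little check of the genotype labels. Summed markers of hippocampal excitatory neurons were 2579 to 3064 CPM in SERTPyramid and 2677 to 3144 CPM in control libraries. Genes listed as markers of other regions and tissues were also measured. The thalamic neuron list summed to 219 to 237 CPM in SERTPyramid and 220 to 242 CPM in control libraries, although its marker Gbx2 was at 0 to 0.118 CPM. The striatal projection neuron list summed to 177 to 211 CPM in SERTPyramid and 177 to 195 CPM in control libraries, with Isl1 at 0 to 0.807 CPM. Neither sum shows by itself that cells of those regions were in the tissue. Choroid plexus genes summed to 31.6 to 2522 CPM in SERTPyramid and 984 to 1854 CPM in control libraries.

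Promoters are shown for the receptor with the highest level per length and for a pair of dopamine receptors low in that order, because they differ in base composition. Each sequence is the RefSeq window (GRCm38.p6) from 250 bases before to 50 bases after the annotated start, on the plus strand, at chr5:35278316-35278615 for Adra2c, chr9:49340153-49340452 for Drd2 and chr5:38319259-38319558 for Drd5. Capitals mark GGGCGG, the core of the GC box, or its reverse complement CCGCCC.
Adra2c: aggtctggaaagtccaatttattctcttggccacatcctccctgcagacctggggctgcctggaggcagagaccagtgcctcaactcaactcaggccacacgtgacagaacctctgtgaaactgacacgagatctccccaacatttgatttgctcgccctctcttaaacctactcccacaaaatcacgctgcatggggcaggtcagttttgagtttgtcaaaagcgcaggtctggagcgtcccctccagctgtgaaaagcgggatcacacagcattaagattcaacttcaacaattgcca
Drd2: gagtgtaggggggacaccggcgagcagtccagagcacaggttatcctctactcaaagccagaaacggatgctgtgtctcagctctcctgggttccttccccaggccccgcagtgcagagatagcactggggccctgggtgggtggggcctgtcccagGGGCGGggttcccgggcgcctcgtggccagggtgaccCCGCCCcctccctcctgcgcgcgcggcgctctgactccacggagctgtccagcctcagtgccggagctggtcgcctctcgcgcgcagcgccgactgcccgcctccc
Drd5: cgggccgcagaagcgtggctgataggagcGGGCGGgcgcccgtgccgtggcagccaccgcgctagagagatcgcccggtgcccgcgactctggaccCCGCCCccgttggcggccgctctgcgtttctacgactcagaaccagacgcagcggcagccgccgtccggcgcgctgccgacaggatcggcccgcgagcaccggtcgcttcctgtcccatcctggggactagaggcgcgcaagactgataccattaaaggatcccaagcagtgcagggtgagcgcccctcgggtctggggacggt
The Adra2c window had 7 CpG dinucleotides and 51.3% G and C, with no GGGCGG on either strand. The Drd2 window had 23 CpG and the Drd5 window 38, each with 70.3% G and C and with 1 GGGCGG on each strand. RefSeq gave windows for 7 of the 9 genes, 9 windows in all, of which 7 held GGGCGG on at least 1 strand. Among all 32851 RefSeq promoter windows of the same length 35.7% held it, and the median window had 7 CpG (quartiles 3 and 20). The RefSeq start lies 247 bases downstream of the GENCODE gene start for Adra2c and 142 bases downstream for Drd5, so nearly all of the letters before the Adra2c start, and many of those before the Drd5 start, lie within the GENCODE gene. For Drd2 that distance is -224 bases, so its RefSeq start is upstream and its window ends before the GENCODE gene begins.

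Levels were compared between genes as CPM per kilobase (kb) of merged exons in the GENCODE M21 annotation. The alpha2C receptor gene Adra2c (ENSMUSG00000045318, chromosome 5, 35278319 to 35281763, plus strand, a single exon of 3445 bases) had the highest median level, 10.7 CPM per kb (range 9.75 to 11.9 over 12 libraries). The alpha1D receptor gene Adra1d (ENSMUSG00000027335, chromosome 2, 131545850 to 131562283, minus strand, 2 exons) followed at 10.4 CPM per kb (8.77 to 14.1). The ranges of this pair overlapped, and Adra2c was the higher gene in 9 of 12 libraries.

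Adra2a (ENSMUSG00000033717, chromosome 19, 54044151 to 54048982, plus strand), the alpha2A receptor that also acts as an autoreceptor on noradrenergic terminals, had a median of 3.95 CPM per kb (3.06 to 4.44). Adrb1 (ENSMUSG00000035283, chromosome 19, 56722199 to 56733113, plus strand), the beta1 receptor, had 3.90 CPM per kb (3.10 to 4.60). Every library had more Adra1d than Adra2a per kb, whereas Adra2a and Adrb1 overlapped, with Adra2a higher in 7 of 12 libraries. Adra1b (ENSMUSG00000050541, chromosome 11, 43774606 to 43901210, minus strand), the alpha1B receptor, had 2.53 CPM per kb (2.14 to 2.79) and lay apart from Adrb1 above it and Drd2 below it, in that order in 12 of 12 libraries.

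The dopamine receptor genes were low. Drd2 (ENSMUSG00000032259, chromosome 9, 49340627 to 49408177, plus strand, 8 exons) had a median of 1.52 CPM per kb (1.18 to 1.94). Drd1 (ENSMUSG00000021478, chromosome 13, 54051183 to 54055705, minus strand) had 1.05 CPM per kb (0.786 to 1.25), and Drd5 (ENSMUSG00000039358, chromosome 5, 38319367 to 38322518, plus strand, a single exon), the D1-like receptor known for its place in the hippocampus, had 0.696 CPM per kb (0.515 to 0.965). Neighbours among the 3 overlapped in range, although Drd2 exceeded Drd1, and Drd1 exceeded Drd5, in 11 of 12 libraries each. An antisense model overlaps 1531 of the 3152 exonic bases of Drd5. Whether reads there were counted is not stated, so the Drd5 level per kb may be understated. Adra1a (ENSMUSG00000045875, chromosome 14, 66635251 to 66771168, plus strand), the alpha1A receptor, ended the order at 0.675 CPM per kb (0.477 to 0.759), overlapping Drd5. Its merged exons span 8728 bases and its longest transcript 4282, and with the longest transcript as length its median became 1.38 CPM per kb, which places it between Drd2 and Drd1.

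**Figure D1:**
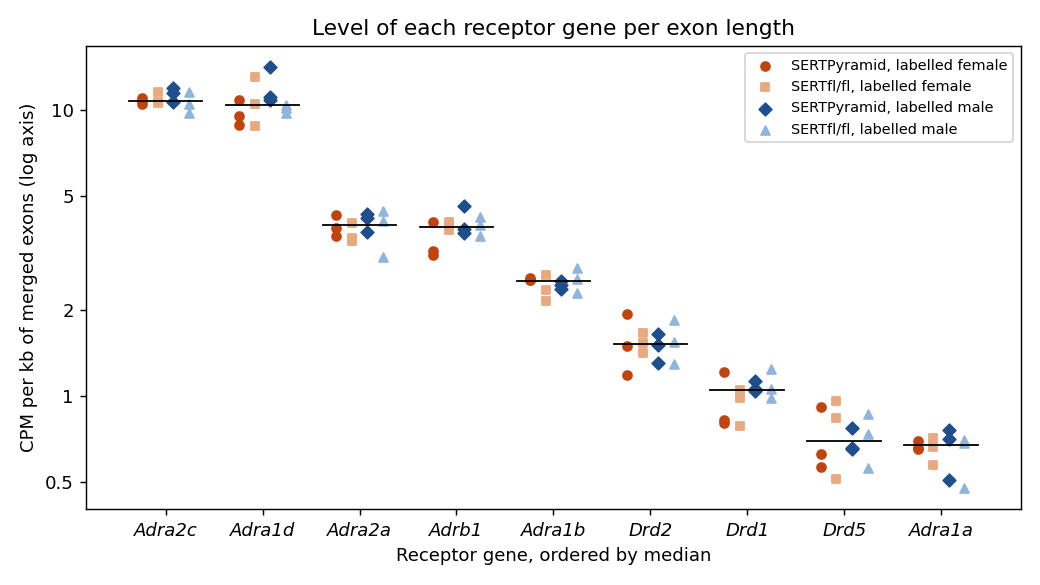
Level of each receptor gene in CPM per kb of merged exons (log axis), 1 point per library, with genes in order of their median (line) and SERTPyramid points left of SERTfl/fl points of the same labelled sex. Adra2c and Adra1d lie at medians of 10.7 and 10.4, and the dopamine receptors at 1.52 and below.

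Summed by family, the 6 adrenergic receptor genes had a median of 32.4 CPM per kb (29.5 to 36.2) and the 3 dopamine receptor genes 3.32 CPM per kb (2.71 to 3.82). The ratio of the sums was 8.39 to 11.2 over the 12 libraries, with a median of 10.1. The alpha1 genes summed to a median of 13.6 CPM per kb and the alpha2 genes to 14.6, while the D1-like pair summed to 1.78 and overlapped Drd2. Some other genes of these families were low in CPM not scaled to length. The median was 0.256 CPM for Adra2b, 0.573 for Adrb3, 0.102 for Drd3 and 0.556 for Drd4, where the limit given above is 0.118 to 0.160 CPM. Of these 4 genes, Adrb3 and Drd4 passed the filter on low counts, and neither passed the genotype test in any contrast.

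The spread of a gene over libraries was set against the spread that counting alone would give. Adra1b, with a mean of 195 counts, had a coefficient of variation of 7.04% over 12 libraries, against 7.17% from counting. Adra1d, with 468 counts, varied by 14.8%, against 4.62% from counting, and Adra2a by 10.6%, against 4.78%. Adra2c, the best counted gene at a mean of 866 counts, varied least, by 5.49%, against 3.40% from counting. Drd5, the least counted at 52.2 counts, varied by 20.7%, against 13.8% from counting, and Drd1 and Drd2 by 14.7% and 14.4%, against 10.8% and 10.5%.

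The comparison of SERTPyramid with SERTfl/fl asked whether these receptor transcripts differ between the genotypes. No receptor gene was called: 0 of 9 passed an adjusted p of 0.05 in edgeR's quasi-likelihood test among libraries labelled female, among those labelled male, in their mean or in the interaction, and 0.0% of the 17631 genes passed in each. At an unadjusted p under 0.05 there were also 0 of 9 receptor genes in each contrast, against 8.04% of all genes among females, 3.16% among males, 6.49% in the mean and 4.45% in the interaction. DESeq2 and limma voom, the latter with a quality weight for each library, called 0 of 9 in each contrast too. Each had 1 receptor gene at an unadjusted p under 0.05 in 1 contrast. These are Adra1d in the interaction (DESeq2), where 501 of all 17631 genes were under 0.05, and Adrb1 among females (limma voom), where 2411 were. In bulk tissue, fewer cells of a type and less RNA per cell cannot be told apart.

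**Figure D2:**
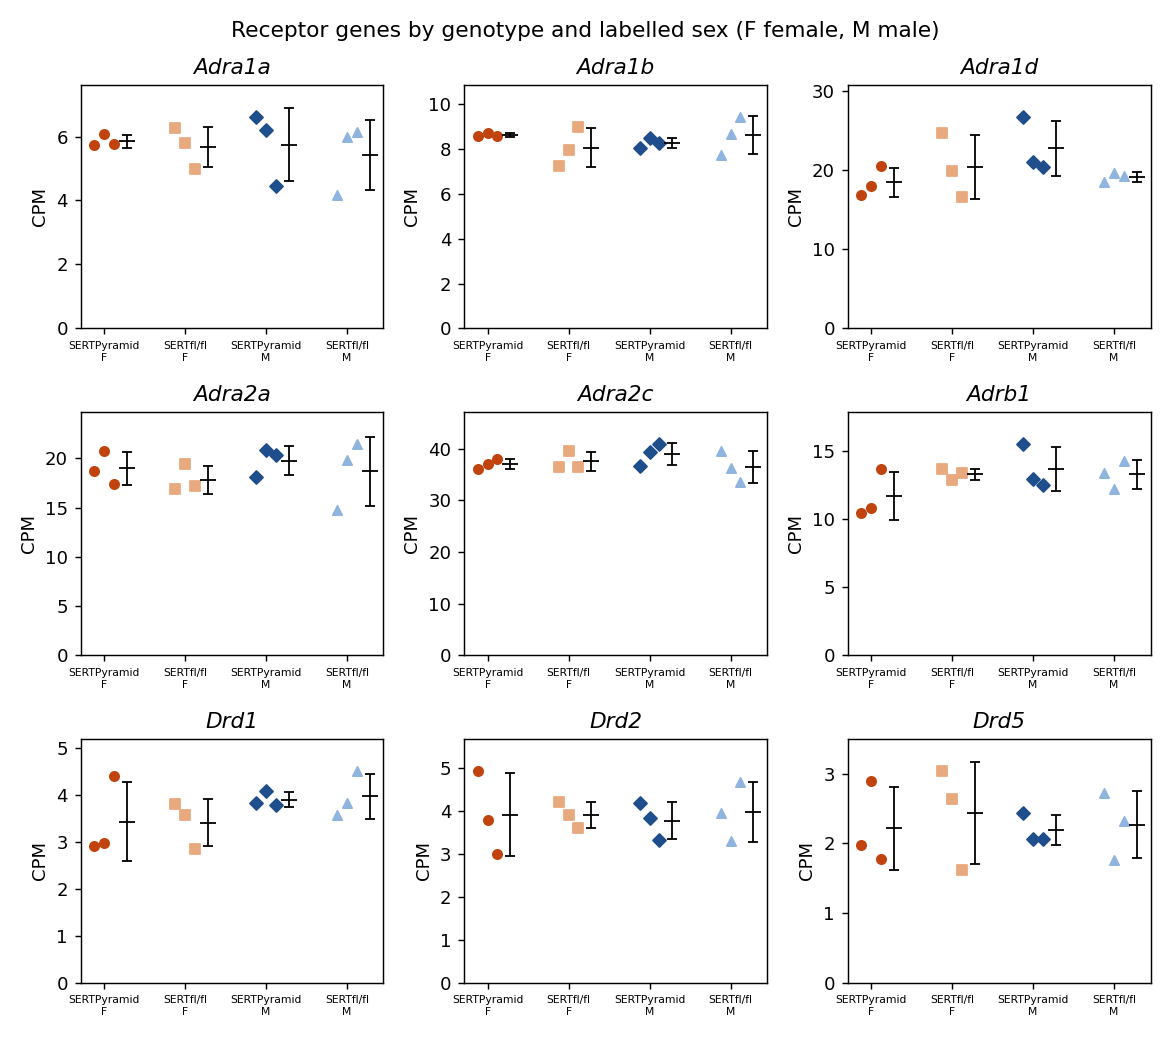
CPM of each of the 9 receptor genes by group, 1 point per library, with the mean beside the points and error bars of 1 SD (n = 3); in each sex SERTPyramid stands left of SERTfl/fl, and F and M are the labelled sexes. The groups overlap for every gene except Adra1d among libraries labelled male.

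Of the 9 genes, Adra1d had the largest fitted genotype difference among libraries labelled male. It had 26.8, 21.0 and 20.5 CPM in SERTPyramid libraries labelled male, against 18.5, 19.7 and 19.2 CPM in their controls. All 3 SERTPyramid values were above all 3 control values. The mean was 22.8 ± 3.50 CPM in SERTPyramid and 19.1 ± 0.586 CPM in control libraries (SD, n = 3 each), a log2 fold change of 0.24 ± 0.14 (SE, edgeR adjusted p = 0.999). The 95% interval of the change ran from -4.24% to 44.7%. Adra1d was the 1 receptor gene of 9 whose groups did not overlap in this contrast, where 4.09% of all genes lay wholly higher and 6.75% lay apart in either direction.

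Among libraries labelled female the Adra1d groups overlapped. It had 16.8, 18.0 and 20.5 CPM in SERTPyramid libraries labelled female, against 24.8, 19.9 and 16.7 CPM in their controls. The log2 fold change was -0.17 ± 0.14 (SE, edgeR adjusted p = 0.807). The difference between the sexes was -0.40 ± 0.20 in log2 (SE, edgeR adjusted p = 0.999), with an interval from -43.5% to 1.57%. Leaving out SERTPyramid replicate 1 labelled male, the highest library, lowered the male log2 fold change to 0.11, and leaving out control replicate 1 labelled female brought the female value to -0.00. Without control replicate 1 of both sexes the female value was -0.00, the male value 0.21 and the difference -0.21. By Xist state, Adra1d was 19.2 to 26.8 CPM (median 20.7) in the 6 libraries of high Xist and 16.7 to 20.5 CPM (median 18.3) in the 6 of low Xist. The part of Xist state in the genotype values of Adra1d was not tested. Over the 12 libraries Adra1d had r = 0.70 with the summed hippocampal excitatory markers (permutation p = 0.0126, adjusted p = 0.273) and r = 0.02 with the choroid plexus sum (permutation p = 0.941, adjusted p = 0.979), with rho = 0.66 (permutation p = 0.0216, adjusted p = 0.334) and -0.01 (permutation p = 0.991, adjusted p = 1.0). SERTPyramid replicate 1 labelled male had the highest excitatory sum of the SERTPyramid libraries, 3064 CPM. Adra1d overlaps an antisense model, Gm14285, over 147 exonic bases, and the library kit does not mark strand, so reads from the pair cannot be told apart there; Gm14285 itself had 1 to 14 counts.

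Of the 9 genes, Adrb1 had the lowest unadjusted p among libraries labelled female. It had 10.5, 10.9 and 13.7 CPM in SERTPyramid libraries labelled female, against 13.7, 12.9 and 13.4 CPM in their controls. SERTPyramid replicates 1 and 2 were below every control, and replicate 3 was not. The mean was 11.7 ± 1.76 CPM in SERTPyramid and 13.3 ± 0.400 CPM in control libraries (SD, n = 3 each), with a log2 fold change of -0.20 ± 0.11 (SE, edgeR unadjusted p = 0.0820, adjusted p = 0.682) and an interval from -26.0% to 1.99%. Among libraries labelled male it had 15.5, 13.0 and 12.5 CPM in SERTPyramid, against 13.4, 12.2 and 14.3 CPM in controls, and the groups overlapped. The male log2 fold change was 0.03 ± 0.11 (SE, edgeR adjusted p = 0.999). Without SERTPyramid replicate 3 labelled female the female value was -0.34, and without SERTPyramid replicate 1 labelled female it was -0.12. Without control replicate 1 of both sexes the female value was -0.18 and the male value 0.03. No receptor gene had non-overlapping groups among libraries labelled female, where 18.8% of all genes did, and none did over both sexes, where 0.261% did.

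For the other alpha receptor genes the SERTPyramid and control values overlapped in each labelled sex. Adra2c had 36.0, 37.0 and 37.9 CPM in SERTPyramid libraries labelled female, against 36.5, 39.6 and 36.5 CPM in controls. In libraries labelled male it had 36.6, 39.3 and 40.9 CPM in SERTPyramid, against 39.6, 36.2 and 33.6 CPM in controls. Adra2c allows the narrowest bound: its mean log2 fold change over both sexes was 0.02 ± 0.05 (SE, edgeR adjusted p = 0.941), with an interval from -4.84% to 8.63%. Without control replicate 1 of both sexes that mean was 0.04 ± 0.05, and the male value 0.14 ± 0.07 (SE, edgeR adjusted p = 0.818 and 0.798). The unadjusted p of that male value was 0.0515 in edgeR. In the same fit the Adra2c difference between the sexes was -0.20 ± 0.10 in log2 (SE, edgeR unadjusted p = 0.0568, adjusted p = 0.999). Adra2a had 18.7, 20.8 and 17.4 CPM in SERTPyramid libraries labelled female, against 16.9, 19.4 and 17.2 CPM in controls. It had 18.1, 20.9 and 20.3 CPM in SERTPyramid libraries labelled male, against 14.8, 19.8 and 21.5 CPM in controls. Its groups overlapped in both sexes, and its mean log2 fold change was 0.07 ± 0.08 (SE, edgeR adjusted p = 0.896, interval -7.22% to 18.0%).

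The alpha1 genes Adra1a and Adra1b overlapped between genotypes in each labelled sex too. Adra1b had 8.60, 8.74 and 8.59 CPM in SERTPyramid libraries labelled female, against 7.25, 7.95 and 8.99 CPM in controls. In libraries labelled male it had 8.03, 8.51 and 8.27 CPM in SERTPyramid, against 7.73, 8.70 and 9.45 CPM in controls. In both sexes the 3 SERTPyramid libraries lay within the wider range of the controls, and the mean log2 fold change was 0.00 ± 0.07 (SE, edgeR adjusted p = 0.999, interval -9.93% to 11.3%). Adra1a had 5.72, 6.08 and 5.76 CPM in SERTPyramid libraries labelled female, against 6.25, 5.78 and 4.999 CPM in controls. It had 6.62, 6.19 and 4.44 CPM in SERTPyramid libraries labelled male, against 4.16, 5.99 and 6.13 CPM in controls. In each male group 1 library was low, and the mean log2 fold change was 0.04 ± 0.11 (SE, edgeR adjusted p = 0.963, interval -12.8% to 21.3%).

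The dopamine receptor genes, with 37 to 125 counts in a library, allow only wide bounds. Drd1, the D1 receptor, had 2.92, 2.99 and 4.40 CPM in SERTPyramid libraries labelled female, against 3.82, 3.57 and 2.85 CPM in controls. In libraries labelled male it had 3.84, 4.08 and 3.79 CPM in SERTPyramid, against 3.57, 3.84 and 4.52 CPM in controls. The groups overlapped in both sexes, and the mean log2 fold change was -0.03 ± 0.12 (SE, edgeR adjusted p = 0.981, interval -17.7% to 17.4%). By Xist state Drd1 was 3.79 to 4.52 CPM in the 6 libraries of high Xist and 2.85 to 4.40 CPM in the 6 of low Xist.

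Drd2, the D2 receptor that is also the dopamine autoreceptor, had 4.93, 3.80 and 3.00 CPM in SERTPyramid libraries labelled female, against 4.21, 3.91 and 3.60 CPM in controls. It had 4.19, 3.83 and 3.32 CPM in SERTPyramid libraries labelled male, against 3.95, 3.29 and 4.68 CPM in controls. The SERTPyramid libraries labelled female spanned the whole range of their controls, and the mean log2 fold change was -0.05 ± 0.12 (SE, edgeR adjusted p = 0.957, interval -19.2% to 15.7%). Drd5, the D5 receptor, had 1.97, 2.90 and 1.78 CPM in SERTPyramid libraries labelled female, against 3.04, 2.64 and 1.62 CPM in controls. In libraries labelled male it had 2.43, 2.06 and 2.07 CPM in SERTPyramid, against 2.72, 1.76 and 2.32 CPM in controls. Drd5 allows the widest bound, from -27.1% to 18.3% in the mean (log2 fold change -0.11 ± 0.17, SE, edgeR adjusted p = 0.923). The antisense model Gm26560, with 1 to 10 counts, overlaps 1531 exonic bases of Drd5. Without strand, reads from those bases cannot be told apart, and whether they were counted is not stated.

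**Figure D3:**
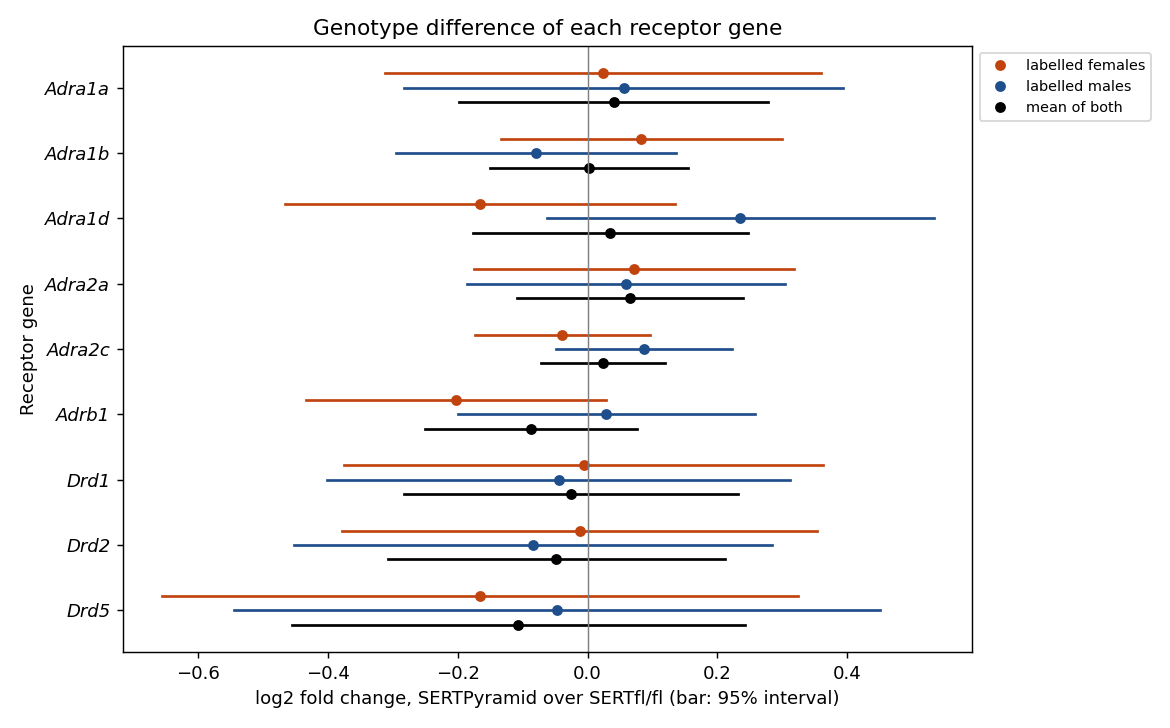
Log2 fold change of SERTPyramid over SERTfl/fl for each receptor gene with its 95% interval from edgeR, among libraries labelled female, among those labelled male and in the mean of both. Every interval crosses 0; that of Adra2c is the narrowest and that of Drd5 the widest.

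Over the 9 genes the median log2 fold change was -0.01 among females, 0.03 among males and 0.00 in the mean, while the median of all genes tested was 0.00 in each. In the mean 5 of 9 values were above 0, and in the female contrast 3 of 9.

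The receptors were also compared with each other across libraries. Of 36 pairs, 0 had a correlation that passed the Benjamini-Hochberg adjustment, and Pearson's r of log2 CPM ran from -0.58 to 0.66. The highest was between Adra1d and Adrb1, with r = 0.66 (permutation p = 0.0192, adjusted p = 0.368) and Spearman's rho = 0.54 (permutation p = 0.0749, adjusted p = 0.444) over 12 libraries. Without the 2 libraries farthest from the median of Adra1d it was 0.51, and it was 0.65 within the 6 libraries of high Xist and 0.57 within the 6 of low Xist. Adra1d and Drd1 had r = 0.59 (permutation p = 0.0399, adjusted p = 0.368) and rho = 0.62 (permutation p = 0.0352, adjusted p = 0.444), and 0.86 without the 2 farthest libraries. Within the 6 libraries of high Xist that value was -0.41 and within the 6 of low Xist 0.93, so the relation did not hold within both.

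The genes whose levels followed each receptor most closely over the 12 libraries were taken from 13703 genes by Pearson's r of log2 CPM, as a description. For Adra1a they were Nacc2 (0.97), a transcriptional repressor, and Sorcs3 (0.94), a sorting receptor of neurons. For Adra1b they were Lrrtm3 (0.92), a synaptic adhesion protein, and St3gal1 (0.89), a sialyltransferase. For Adra1d they were Klhl29 (0.91) and Ly6e (0.89). For Adra2a they were Spp1 (0.89), the osteopontin gene, and Chtf8 (0.85), and for Adra2c Samd1 (0.92) and Mrps24 (0.91), a mitochondrial ribosomal protein. For Adrb1 they were Thumpd1 (0.89) and Mrpl1 (0.85), for Drd1 Pld3 (0.87) and Atp6v0e2 (0.86), for Drd2 Sft2d2 (0.89) and Sesn1 (0.88), and for Drd5 Acot6 (0.88) and Msrb3 (0.82). Values this high are the top of many comparisons over 12 points.

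Downstream of the receptors, 44 measured genes of G protein alpha subunits, cyclic AMP and protein kinase A, phospholipase C and protein kinase C, and receptor desensitisation were tested, and 0 passed in any contrast. Among females 19 were above 0 and 25 below, among males 15 and 29, and in the mean 17 and 27, where the median log2 fold change was -0.02, against 0.00 for all genes. At an unadjusted p under 0.05 there were 3 of 44 (6.82%) among females, 0 among males, 3 in the mean and 2 in the interaction (4.55%), beside the shares of all genes given above. Among the G protein alpha subunits 3 of 9 were above 0 in the mean. The lowest p there was that of Gnal, the Golf subunit that carries D1 receptor signals in striatum, at -0.10 ± 0.05 (SE, edgeR adjusted p = 0.756). Gnas, the Gs subunit, had an interaction of -0.48 ± 0.21 in log2 (SE, edgeR adjusted p = 0.999). Without control replicate 1 of both sexes the 44 genes split into 16 above 0 and 28 below in the mean, with 6 at an unadjusted p under 0.05 and 0 called, Gnal had -0.13 and the Gnas interaction was -0.59.

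In the cyclic AMP list 5 of 15 genes were above 0 in the mean, and Adcy6, an adenylyl cyclase, had 0.12 ± 0.04 (SE, edgeR adjusted p = 0.756). Ppp1r1b, which encodes the dopamine-regulated phosphatase inhibitor DARPP-32, was at 17.1 to 36.7 CPM. In the phospholipase list 3 of 9 were above 0, and Plcb1, the phospholipase C beta1 gene downstream of Gq, had -0.09 ± 0.04 (SE, edgeR adjusted p = 0.756). In the desensitisation list 6 of 11 were above 0, and Grk3, a kinase that phosphorylates active receptors, had 0.10 ± 0.04 in the mean and 0.20 ± 0.05 among females (SE, edgeR adjusted p = 0.756 and 0.530). The mean values were 0.14 for Adcy6, -0.11 for Plcb1 and 0.07 for Grk3 without control replicate 1 of both sexes, and the female value of Grk3 was 0.16.

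**Figure D4:**
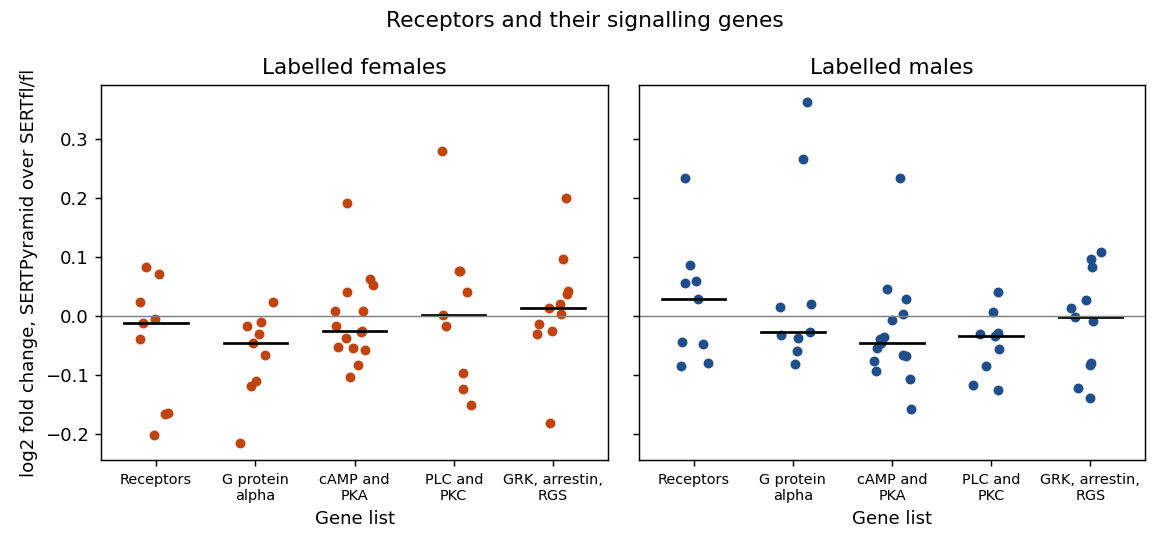
Log2 fold change of SERTPyramid over SERTfl/fl for each tested gene of the 4 signalling lists and for the 9 receptor genes, among libraries labelled female (left panel) and male (right panel); 1 point per gene, bar at the median. The points of each list lie on both sides of 0, and none of these genes passed the test.

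Transcripts of 7 enzymes and transporters of catecholamine neurons, whose cell bodies lie outside the hippocampus, were also measured. Slc18a2, the vesicular transporter of all monoamines, was the highest at 11.3 to 14.4 CPM, and Ddc, the decarboxylase that dopamine and serotonin synthesis share, was at 1.97 to 3.35 CPM. Th, the rate-limiting enzyme of catecholamine synthesis, was at 0.474 to 1.61 CPM, Dbh, which makes noradrenaline from dopamine, at 0.258 to 0.817 CPM, and the noradrenaline transporter Slc6a2 at 0 to 0.387 CPM. Th had 17, 17 and 11 counts in SERTPyramid libraries labelled male, against 26, 29 and 28 in controls, and 23, 34 and 36 counts in SERTPyramid libraries labelled female, against 26, 19 and 20 in controls. The male groups did not overlap, as for 6.75% of all genes in either direction, and the female groups did. The log2 fold change of Th was -0.93 ± 0.29 among males (SE, edgeR unadjusted p = 0.00493, adjusted p = 0.999) and the difference between the sexes was 1.42 ± 0.40 in log2 (SE, edgeR unadjusted p = 0.00201, adjusted p = 0.999). These values were -0.84 and 1.49 without control replicate 1 of both sexes. Of the 5 genes of this list that were tested, Th was the 1 below 0 among males. The other 4 were above 0, and the list median was 0.09 in log2.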

How the data were processed

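RNA was sequenced from dorsal hippocampus of 12 pooled samples, 4 mice each, with TruSeq libraries made from 250 ng of total RNA, per the labels' protocols. The kit does not mark strand. Values deposited by the authors are raw counts for each Ensembl gene. The build is mm10, per the submitters' processing notes. The deposited matrix is named as htseq counts. The aligner, the settings of the counter and the annotation are not stated in those notes or in the labels. Groups came from the labels. The 9 receptor genes and all gene lists were chosen with earlier results of these data known.

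Library-total CPM gave per-library values, and GENCODE M21 (GRCm38) gave exon lengths and coordinates, matching 52401 gene identifiers. Genes were filtered with filterByExpr, scaled by TMM and tested across all 17631 genes in 4 groups by edgeR 4.0.16's robust quasi-likelihood F test (R 4.3.3), with Benjamini-Hochberg adjustment at 0.05. SE was computed by dividing the size of the log2 fold change by the root of F, and intervals are 95 percent. Correlations used 100000 permutations. Alternatives were DESeq2 1.42.0, limma 3.58.1 voom with quality weights, RLE scaling, 2 other filters, a replicate block, subsets of libraries and other lengths. Genes of like pattern are the 2 with the highest r per receptor at a mean log2 CPM of at least 1. List genes were named as those of lowest p in the mean, up to 4 per list, beside markers near 0, and Gnas and Ppp1r1b were added once their values had been seen. Some genes of the lists are not reported here. The test was tried on simulated data. Replicate pairs differed by more than sampling noise (chi-square over degrees of freedom 2.52 to 13.9). Each receptor gene passed the filter, so the exact test planned for genes below it was not needed.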

Additional observations from a re-analysis of the deposited data

How the results depend on the processing

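In each contrast 0 of 9 receptor genes were called under every alternative run. Besides DESeq2 and limma voom, some alternatives had receptor genes at an unadjusted p under 0.05. Without a filter on low counts there were 2 of 9 among females, 1 among males and 1 in the interaction. Of all 34328 genes, 2140, 1240 and 1439 were under 0.05 there. Fits on subsets of libraries had at most 2, in the interaction without SERTPyramid replicate 3 labelled female, where 722 of 17934 genes were. Log2 fold changes under the alternatives were followed for 29 results: all 9 genes among females, among males and in the mean, but only Adra1d and Adrb1 in the interaction. For these the smallest adjusted p was 0.260. Of their 578 alternative log2 fold changes, 524 kept their direction and 54 reversed, 41 of them on leaving out 1 library. Without control replicate 1 of both labelled sexes the female values became 0.086 for Drd1, 0.049 for Drd2 and 0.029 for Drd5, the male values -0.091 for Adra1a, -0.077 for Adra2a and 0.087 for Drd5, and the mean values -0.066 for Adra1b, -0.020 for Adra2a and 0.058 for Drd5. With limma voom the male values were -0.059 for Adra1a and 0.024 for Drd5, and the mean values -0.0029 for Adra1a and -0.019 for Adra1b. Leaving out 1 library at a time gave female ranges of -0.057 to 0.10 for Adra1a, -0.064 to 0.0053 for Adra2c, -0.23 to 0.12 for Drd1, -0.21 to 0.14 for Drd2 and -0.39 to 0.028 for Drd5. The male ranges were -0.091 to 0.22 for Adra1a, -0.077 to 0.18 for Adra2a, -0.067 to 0.10 for Adrb1, -0.11 to 0.065 for Drd1, -0.22 to 0.066 for Drd2 and -0.21 to 0.087 for Drd5. The mean ranges were -0.032 to 0.12 for Adra1a, -0.031 to 0.046 for Adra1b, -0.028 to 0.12 for Adra1d, -0.0011 to 0.13 for Adra2a, -0.14 to 0.037 for Drd1 and -0.15 to 0.031 for Drd2. Adrb1 kept its direction among females, at -0.34 to -0.12, and Adra1d kept its direction, at -0.29 to -0.0020 among females, 0.11 to 0.32 among males and -0.53 to -0.24 in their difference. The cause was not tested.

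Over all genes the test on all 12 libraries called 0 in each contrast. DESeq2 called 1 among females and 1 in the interaction. Without a filter on low counts, where 34328 genes were tested, 103 were called among females, 5 among males, 66 in the mean and 14 in the interaction. The 6 libraries labelled female fitted alone gave 415 calls among 17108 genes, and 0 among the 9 receptor genes. Leaving out 1 library gave 0 to 2 calls among females and 0 to 144 in the mean, both highest without SERTPyramid replicate 2 labelled male, and 0 elsewhere. The replicate block called 0 genes in each contrast. Deviations of same-numbered libraries had r from -0.23 to 0.23 over 18 pairs, 2 of them above 0.1. Those 2 were replicates 1 and 3 of SERTPyramid labelled female with the same numbers labelled male (0.23 and 0.13). With 3 libraries per group such values cannot exclude that the numbers pair them. With the longest transcript as length the median was 1.38 CPM per kb for Adra1a and 4.46 for Adrb1. Among deviations from group means 0 of 36 pairs of receptors passed the adjustment.

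For Drd1, Drd2 and Drd5 the coefficient of variation within groups was 15.0%, 16.8% and 23.7%, against 10.8%, 10.5% and 13.8% from counting alone, so their intervals hold counting error and spread between libraries.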

Other observations

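The receptor levels were also set against the summed markers of 12 cell types over the 12 libraries, a comparison chosen after the data were seen. Of 108 correlations, 1 passed the Benjamini-Hochberg adjustment by Pearson's r and 9 had a permutation p under 0.05. Adra1a and the astrocyte sum had r = 0.90 (permutation p = 9.0e-05, adjusted p = 0.00972) and Spearman's rho = 0.87 (permutation p = 0.00056, adjusted p = 0.0605). Without the 2 libraries farthest from the median astrocyte sum r was 0.64, and it was 0.91 within the 6 libraries of high Xist and 0.92 within the 6 of low Xist. The lowest astrocyte sums were 3032 CPM in control replicate 1 and 3076 CPM in SERTPyramid replicate 3, both labelled male, where Adra1a had its lowest values, 4.16 and 4.44 CPM. The former is a library of low Xist and the latter of high Xist. Each set of 6 therefore holds 1 of them, and its r can rest on that library. In the same family Adra1a reached r = 0.74 with microglia (permutation p = 0.00468, adjusted p = 0.253; rho = 0.66, permutation p = 0.0216, adjusted p = 0.334), 0.70 without the 2 farthest libraries, 0.57 within the 6 libraries of high Xist and 0.87 within the 6 of low Xist. Adra1a also had r = 0.67 with hippocampal excitatory neurons (permutation p = 0.0172, adjusted p = 0.280; rho = 0.71, permutation p = 0.0112, adjusted p = 0.302), and 0.54 without the 2 farthest libraries. With pericytes and smooth muscle it had r = 0.66 (permutation p = 0.0182, adjusted p = 0.280; rho = 0.57, permutation p = 0.0561, adjusted p = 0.453), which fell to 0.07 without the 2 farthest libraries and so rests on them. With striatal projection neurons it had r = 0.63 (permutation p = 0.0288, adjusted p = 0.389; rho = 0.67, permutation p = 0.0200, adjusted p = 0.334), and 0.40 without the 2 farthest libraries. Within the 6 libraries of high Xist these 3 values were 0.79, 0.84 and 0.85, and within the 6 of low Xist 0.39, 0.31 and 0.24.

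Drd2 and the sum of striatal projection neuron markers had r = 0.70 (permutation p = 0.0105, adjusted p = 0.273) and rho = 0.84 (permutation p = 0.00122, adjusted p = 0.0659), and r was 0.74 without the 2 farthest libraries. Within the 6 libraries of high Xist it was 0.62 and within the 6 of low Xist 0.84. Given the low Isl1 level above, that sum is not a measure of striatal neurons alone. Adra1d and the hippocampal excitatory sum had r = 0.70 (permutation p = 0.0126, adjusted p = 0.273) and rho = 0.66 (permutation p = 0.0216, adjusted p = 0.334), and 0.79 without the 2 farthest libraries. That value was 0.79 within the 6 libraries of high Xist and 0.33 within the 6 of low Xist.

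Adra2a and the sum of oligodendrocyte precursor markers had r = 0.71 (permutation p = 0.00945, adjusted p = 0.273) and rho = 0.76 (permutation p = 0.00541, adjusted p = 0.195), and r was 0.46 without the 2 farthest libraries. Within the 6 libraries of high Xist it was 0.74 and within the 6 of low Xist 0.57. Drd1 and the catecholamine neuron sum had r = 0.61 (permutation p = 0.0355, adjusted p = 0.427) and rho = 0.57 (permutation p = 0.0595, adjusted p = 0.453), and 0.69 without the 2 farthest libraries. Within the 6 libraries of high Xist it was 0.66 and within the 6 of low Xist 0.69. That sum was 16.8 to 19.2 CPM, most of it from Slc18a2, the vesicular transporter of all monoamines, so it is not a measure of catecholamine neurons alone.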
